A study of Mus musculus with 6 samples.

Results

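The Egr, Nr4a, Klf and Ier early genes are 10 genes of inducible factors: Egr1, Egr2, Egr3, Nr4a1, Nr4a2, Klf2, Klf4, Klf6, Ier2 and Ier3. They were taken by symbol from 23574 genes, after the counts of the RefSeq transcripts were summed per gene. All 10 were listed, and 9 had enough counts to be tested, the exception being Nr4a2. The RNA came from haematopoietic stem cells of mice lacking Hlf (hepatic leukaemia factor, a PAR bZIP transcription factor) and of their wild-type littermates, with 3 libraries of each genotype. The mice were C57BL/6, and both groups were sorted freshly as Lin- Sca+ c-Kit+ cells without CD34 or Flt3, with 3000 cells for each library. The sources used here do not give the age of the animals, the part of Hlf removed or the number of animals behind a library. P-values therefore measure only how far these libraries spread, and part of that may be technical.

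Immediate early genes are transcribed within minutes of a signal, before any new protein is made. Growth factor and stress kinases reach them through the serum response factor SRF with its ternary complex partners, and through the cAMP-responsive factor CREB. The Egr proteins are zinc finger activators that bind GC-rich DNA, the Nr4a proteins are nuclear receptors that act without a known natural ligand, and the Klf proteins are zinc finger factors of GC-rich and CACC elements. Ier2 and Ier3 encode small early response proteins that lack these DNA-binding domains. In mouse stem cells Egr1 is known for restraining division and release into the blood, the Nr4a family is tied to quiescence, and Klf2 is known for keeping resting T cells quiescent.

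No early gene passed edgeR's test of knockout against wild type when p-values were adjusted over all 10204 tested genes (0 of 9 at an adjusted p under 0.05). The same rule called 0.0098% of all tested genes lower and 0% higher, since Hlf was the only gene called. The point estimates lay mostly below 0, with 8 of 9 negative log2 fold changes, against 52.8% of all tested genes. The median over the 9 genes was -1.09, and over all tested genes it was -0.05. At an unadjusted p under 0.05, 3 of the 9 genes (Egr1, Klf6 and Klf4) had lower values in knockout and 0 had higher ones, where 4.65% and 2.63% of all tested genes met those rules. Klf6 was the 1 gene whose value was lower in every knockout library than in every wild-type library, a pattern seen in 6.85% of all tested genes. Without wild-type library 1 the count with lower values at an unadjusted p under 0.05 was 5, where 5.03% of all tested genes met that rule. With any 1 library left out 2 to 4 early genes did not overlap, where 9.83% to 13.4% of all tested genes did not. DESeq2 called 1 of the 9, Egr1, and it called 0.96% of all tested genes lower.

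**Figure D1:**
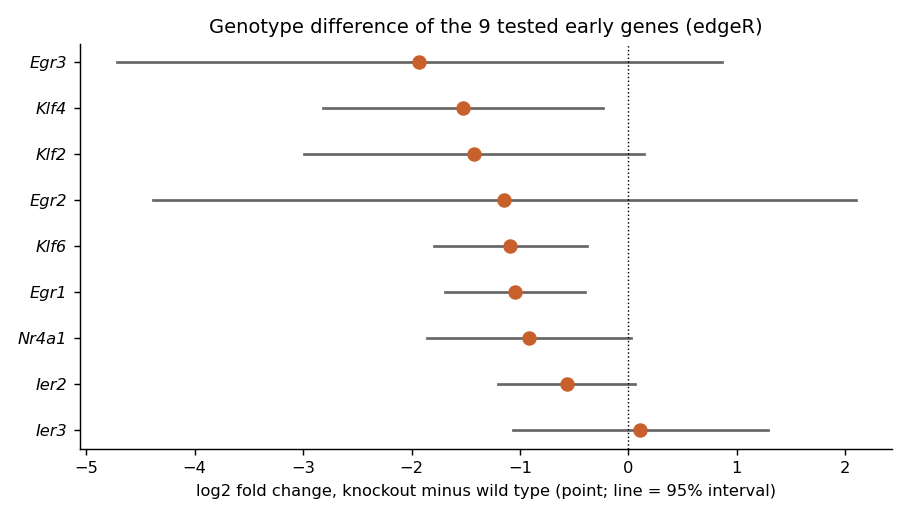
Log2 fold change of knockout against wild type (x axis) for the 9 tested early genes (y axis), with edgeR's estimate as a point and its 95% interval as a line. The intervals of Klf4, Klf6 and Egr1 lie below 0, those of the other 6 genes include 0, and Ier3 has the 1 positive estimate at 0.11.

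The counts behind these values were deep for some genes and thin for others. Wild-type libraries held 8346335 to 9902102 counts and knockout libraries 10182464 to 11998296, so each knockout library was the deeper. Hlf itself had a wild-type mean of 1382 ± 274 CPM (counts scaled to the library's size, SD, n = 3) and a knockout mean of 34.4 ± 5.30 CPM (SD, n = 3), which checks the labels. The sorted phenotype could be followed only in part: Gata2 averaged 535 CPM and Procr 75.0 CPM in the wild-type libraries, but Kit had 1 count over all libraries, Ly6a 0, and Cd34 24, all of them genes with several listed transcripts, a class that was counted poorly here. Among the early genes, 9 have 1 listed transcript, and Nr4a2 has 2. Xist was abundant in wild-type library 3 (16730 counts) and knockout library 3 (19229 counts), with at most 34 counts in any other library. Wild-type library 3 also held the most RNA of granulocyte and monocyte genes. In bulk RNA, fewer cells expressing a gene and less RNA in each cell cannot be told apart.

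The promoters of some of the early genes are shown to let the families be compared by sequence. Egr1, the most abundant of them, is not among those shown or counted below. Windows from RefSeq's promoter table for GRCm38.p6 were taken for 7 of the 10 genes (Egr2, Nr4a1, Nr4a2, Klf2, Klf4, Klf6 and Ier3). None was taken for Egr1, Egr3 or Ier2. Windows on 1 chromosome were left out for the early genes but kept in the shares over all genes. A gene without a window here may therefore still be in that table. Each line gives the 250 bases before a transcription start, 5′ to 3′ on the gene's strand. Egr2 has 5 listed starts, of which 1 is shown. Capitals mark the CArG box bound by SRF, the EGR site GCGGGGGCG and the CRE core TGACG bound by CREB-type factors, on either strand.
Egr2, chr10:67537619-67537868, plus strand: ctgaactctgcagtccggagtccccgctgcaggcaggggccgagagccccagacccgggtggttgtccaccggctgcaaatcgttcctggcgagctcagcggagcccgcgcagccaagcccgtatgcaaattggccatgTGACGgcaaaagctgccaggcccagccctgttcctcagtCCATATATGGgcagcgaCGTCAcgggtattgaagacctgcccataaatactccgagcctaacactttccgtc
Nr4a1, chr15:101266596-101266845, plus strand: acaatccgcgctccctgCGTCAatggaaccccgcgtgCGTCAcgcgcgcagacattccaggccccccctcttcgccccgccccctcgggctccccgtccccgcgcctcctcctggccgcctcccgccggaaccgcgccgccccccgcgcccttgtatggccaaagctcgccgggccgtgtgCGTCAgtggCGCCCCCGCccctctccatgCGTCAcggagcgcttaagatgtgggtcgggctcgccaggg
Klf2, chr8:72318812-72319061, plus strand: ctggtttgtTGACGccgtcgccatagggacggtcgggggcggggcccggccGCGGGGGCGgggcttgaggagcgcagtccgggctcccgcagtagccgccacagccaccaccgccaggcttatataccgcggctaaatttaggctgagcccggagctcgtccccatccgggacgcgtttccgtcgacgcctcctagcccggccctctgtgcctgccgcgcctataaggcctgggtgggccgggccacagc
Klf4, chr4:55532476-55532725, minus strand: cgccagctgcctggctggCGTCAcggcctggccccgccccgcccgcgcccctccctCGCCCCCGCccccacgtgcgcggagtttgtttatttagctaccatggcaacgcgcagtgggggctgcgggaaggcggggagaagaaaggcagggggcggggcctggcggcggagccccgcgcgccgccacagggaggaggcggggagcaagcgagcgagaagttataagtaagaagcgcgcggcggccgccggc
Klf6, chr13:5861239-5861488, plus strand: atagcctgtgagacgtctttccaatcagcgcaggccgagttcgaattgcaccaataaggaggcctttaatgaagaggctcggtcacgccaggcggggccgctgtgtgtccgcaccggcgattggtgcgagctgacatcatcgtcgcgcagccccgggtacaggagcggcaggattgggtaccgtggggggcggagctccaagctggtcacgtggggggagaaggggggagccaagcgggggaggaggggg

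These windows were searched with 50 further bases after the start, on both strands. The EGR site was found in 3 of the 7 genes (Klf2, Klf4 and Nr4a1) and in 3.31% of the 27025 genes of the table. The CRE core was found in 5 of the 7 (Egr2, Klf2, Klf4, Nr4a1 and Nr4a2) and in 23% of all genes, and the window of Nr4a1 held 4 of them. The CArG box was found in 1 of the 7, Egr2, and in 1.81% of all genes. The full CRE TGACGTCA, which contains the core, the AP-1 site TGACTCA (or its reverse complement) and the PAR bZIP site TTACGTAA, the kind of element that Hlf binds, were found in 0 of the 7. They were found in 2.03%, 5.95% and 0.126% of all genes. Guanine and cytosine made up 54% to 80% of the 250 bases in these genes, and the shares over all genes are not matched for base composition. The window of Klf6 held none of these motifs. A match describes letters in this window, and no match says nothing of the factor.

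Egr1, the zinc finger activator that restrains stem cell division, was the most abundant of the 10 genes, with 114715 of their 159426 counts. It stood at 3173, 3179.5 and 1724 CPM in wild-type libraries 1, 2 and 3, and at 1109, 927 and 1877 CPM in knockout libraries 1, 2 and 3. The groups overlapped because knockout library 3 lay above wild-type library 3. The wild-type mean was 2692 ± 838 CPM and the knockout mean 1304 ± 504 CPM (SD, n = 3 each). The log2 fold change was -1.05 (SE 0.30, 95% interval -1.69 to -0.40, edgeR unadjusted p = 0.0044, adjusted p = 0.47). DESeq2 gave -1.07 with an adjusted p of 0.0434. The two-sided exact permutation p of log2 CPM was 0.2, where 3 libraries against 3 allow no p below 0.1.

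For Egr1 the genotype difference depended on which libraries were set side by side. In the pair with abundant Xist, the knockout library stood at 1877 CPM and the wild-type library at 1724 CPM, a log2 ratio of 0.12 with no replicate. In the other 4 libraries, both knockout values lay below both wild-type values, with means of 1018 and 3176 CPM, and edgeR gave a log2 fold change of -1.64 (adjusted p = 0.17). Whether the pairs differ was not tested. The Y-linked genes Ddx3y and Uty had 0 counts in library 3 of each genotype, against 432 to 1247 and 253 to 705 in the other libraries. Eif2s3y and Kdm5d had at most 6 counts there, against 713 to 1504 and 1014 to 1285. Xist marks female cells in mice, so libraries 3 had the pattern of female cells and the others that of male cells. The labels give no sex.

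Egr2 and Egr3, relatives of Egr1 known for limiting T-cell activation, were low and uneven. Egr2 had 309, 0 and 109 reads in wild-type libraries 1, 2 and 3, with 114, 120 and 17 in knockout libraries 1, 2 and 3. In CPM these were 39.3, 0 and 12.1 against 10.4, 11.3 and 1.47. Wild-type library 2 was thus the lowest of the 6, and its 0 allows up to 0.312 CPM (3 counts, counting error only). Egr2 had a log2 fold change of -1.15 (SE 1.48, edgeR adjusted p = 0.90), and it was 0.37 without wild-type library 1 and 1.10 by limma-voom, so no direction can be given.

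Egr3 had wild-type counts of 189, 62 and 35 and knockout counts of 28, 62 and 7, or 24.0, 6.45 and 3.88 CPM against 2.56, 5.84 and 0.606 CPM. Wild-type library 1 was far above the rest, and knockout library 2 lay between the wild-type values. Egr3 had a log2 fold change of -1.93 (SE 1.28, 95% interval -4.72 to 0.86, edgeR adjusted p = 0.75), and -0.77 without wild-type library 1. The interval covers both a large decrease and no change.

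Nr4a1, the nuclear receptor also called Nur77, stood at 71.1, 219 and 142 CPM in wild type and at 68.1, 55.3 and 106 CPM in knockout. Wild-type libraries 2 and 3 lay above all knockout libraries, while wild-type library 1 lay below knockout library 3. The means were 144 ± 74.1 CPM and 76.3 ± 26.1 CPM (SD, n = 3 each). The log2 fold change was -0.92 (SE 0.43, edgeR unadjusted p = 0.0548, adjusted p = 0.68), and -0.47 without wild-type library 2.

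Nr4a2, the nuclear receptor known from dopamine neurons, was barely seen. Its 2 listed transcripts together had 3, 9 and 10 reads in the wild-type libraries, and 3, 4 and 5 in the knockout libraries, 34 in all. The shorter transcript had 11 of them, 9 in wild-type library 2. The gene did not pass the filter on low counts and was not tested, and with several transcripts a low count may come from the counting, so it is not read as low expression. The third family gene, Nr4a3, had wild-type counts of 131, 2 and 0 and knockout counts of 10, 10 and 0, so that wild-type library 1 held most of its reads, and it was not tested either.

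Klf6, a zinc finger factor known as a tumour suppressor, was lower in every knockout library, as were 6.85% of all tested genes. It stood at 676, 500.2 and 328 CPM in wild-type libraries and at 276, 285 and 145 CPM in knockout libraries. Every knockout library lay below every wild-type library, though the nearest pair, wild-type library 3 and knockout library 2, differed by less than the SD within either group. The means were 501 ± 174 CPM and 236 ± 78.4 CPM (SD, n = 3 each). The log2 fold change was -1.09 (SE 0.32, 95% interval -1.79 to -0.39, edgeR unadjusted p = 0.0056, adjusted p = 0.47), with a DESeq2 adjusted p of 0.0641. Its exact permutation p was 0.1, the smallest the design allows. The log2 ratio was -1.17 within the Xist-abundant pair and -1.07 over the other 4 libraries, each lower in knockout.

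Klf4, known as a reprogramming factor and as a factor of monocyte and epithelial differentiation, stood at 23.8, 114 and 67.8 CPM in wild type and at 31.3, 24.9 and 15.4 CPM in knockout. Wild-type libraries 2 and 3 were the highest, while wild-type library 1 lay among the knockout values. The means were 68.5 ± 45.1 CPM and 23.9 ± 7.99 CPM (SD, n = 3 each). For Klf4 the log2 fold change was -1.52 (SE 0.59, 95% interval -2.81 to -0.23, edgeR unadjusted p = 0.0247, adjusted p = 0.64). Leaving out wild-type library 2 gave -0.93, and leaving out wild-type library 1 gave -1.92.

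Klf2, the factor of resting T cells and of endothelium under flow, rested on 1 library. It stood at 23.5, 18.9 and 86.4 CPM in wild type and at 24.2, 14.8 and 9.0 CPM in knockout. Apart from wild-type library 3, the wild-type values lay within the range of the knockout. For Klf2 the log2 fold change was -1.43 (SE 0.72, edgeR unadjusted p = 0.0704, adjusted p = 0.69), and -0.41 without wild-type library 3. Over the 4 libraries without abundant Xist it was -0.12.

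Klf2 and Klf4 are also genes of endothelium and of myeloid or lymphoid cells, so marker RNA of those cells is given beside them. The summed level of 7 endothelial markers was 102 to 212 CPM in wild type and 70.2 to 81.1 CPM in knockout, highest in wild-type library 3. Pecam1 and Emcn, with several transcripts each, had 2 counts and 1. All 5 tested members had negative log2 fold changes, as had 52.8% of all tested genes. Tek and Stab2 were lower in every knockout library, as were 6.85% of all tested genes. Cdh5 and Plvap exceeded every knockout library only in wild-type library 3, and Kdr (-0.05) only in wild-type library 1. The sum of 12 granulocyte and monocyte markers was 3350 CPM in wild-type library 3, 624 and 638 CPM in wild-type libraries 1 and 2, and 323 to 488 CPM in knockout, with Cd14, S100a9 and Itgam at 0 in every library. All 8 tested members of that list had negative log2 fold changes, as had 52.8% of all tested genes. Mpo, Elane, Ctsg and Csf1r exceeded every knockout library only in wild-type library 3. S100a8, Ly6c2 and Lyz2 did so in 2 wild-type libraries, and Prtn3 in all 3, as did 6.85% of all tested genes. The 9 B-cell markers summed to 83.6 to 162 CPM in wild type and 34.0 to 53.5 CPM in knockout. Those of T and NK cells (8 of 9 in the files, Cd8a at 0) summed to 130 to 239 CPM and 338 to 630 CPM. Within that sum Nkg7 alone stood at 71.4 to 156 CPM in wild type and 254 to 463 CPM in knockout. Of the 6 tested T and NK genes, 2 had negative log2 fold changes, Cd3e and Cd4. Cd4 was lower in every knockout library, as were 6.85% of all tested genes. Cd3g, Nkg7 and Ccl5 were higher in every knockout library, as were 7.52% of all tested genes. The part of these cells in the values of Klf2 and Klf4 was not tested.

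Ier2, a small early response protein of the nucleus, had the tightest values. It stood at 176, 141 and 212 CPM in wild type and at 116, 97.3 and 143 CPM in knockout. Only knockout library 3 and wild-type library 2 crossed, by a small margin. The means were 176 ± 35.7 CPM and 119 ± 22.9 CPM (SD, n = 3 each), and the log2 fold change was -0.57 (SE 0.29, 95% interval -1.20 to 0.07, edgeR unadjusted p = 0.0741, adjusted p = 0.69). Its log2 ratio was -0.57 in the Xist-abundant pair and -0.57 in the other libraries.

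Ier3, also called IEX-1 and known as a modulator of cell survival, had the 1 positive estimate. It stood at 60.4, 19.3 and 83.4 CPM in wild type and at 64.8, 38.2 and 73.2 CPM in knockout. The highest and the lowest value were both wild type, and the knockout values lay between them. The means were 54.4 ± 32.5 CPM and 58.7 ± 18.2 CPM (SD, n = 3 each), with a log2 fold change of 0.11 (SE 0.54, 95% interval -1.07 to 1.29, edgeR adjusted p = 0.98). The sign turned to -0.28 without wild-type library 2 and to -0.07 without knockout library 3. The lower limit lay close to the estimates of Egr1 (-1.05) and Klf6 (-1.09), with Egr1's inside the interval and Klf6's just outside it.

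**Figure D2:**
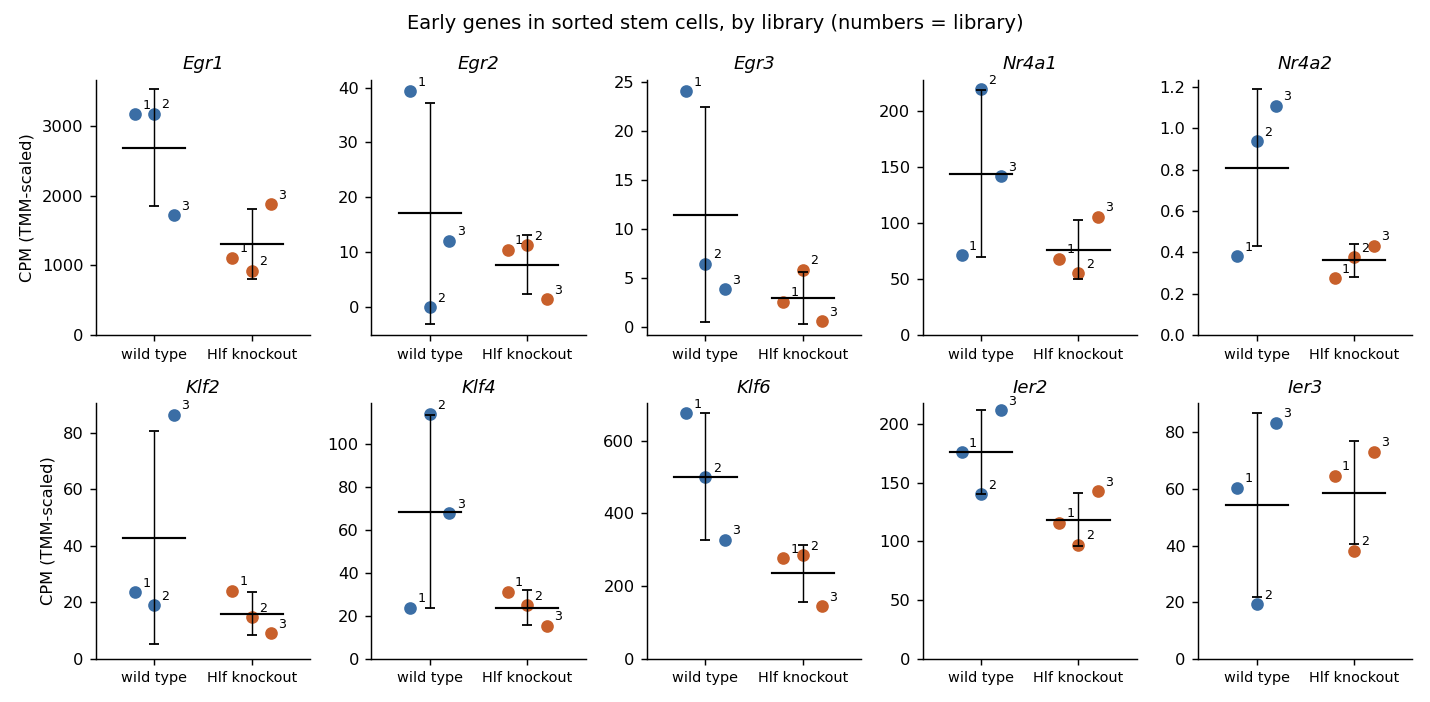
Level of each early gene in CPM (y axis, linear, scaled per gene) in the 3 wild-type and 3 knockout libraries (points, numbered by library), with the group mean (bar) and SD (error bar). Klf6 is the gene whose groups do not overlap, Egr1 overlaps through knockout library 3, and the wild-type mean of Klf2 is set by library 3.

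The wild-type libraries did not share 1 order across the genes. Of the 9 tested genes, wild-type library 1 was the highest of all 6 libraries for Egr2, Egr3 and Klf6, wild-type library 2 for Egr1, Nr4a1 and Klf4, and wild-type library 3 for Klf2, Ier2 and Ier3. No knockout library was the highest for any of them (0 of 9). That count is not separate from their mostly negative estimates, and its share over all tested genes was not taken. Knockout library 3 was the lowest for Egr3, Klf2, Klf4 and Klf6, yet it was the highest knockout library for Egr1, Nr4a1, Ier2 and Ier3. Knockout library 2 was the lowest of all for Egr1, Nr4a1 and Ier2, and wild-type library 2 was the lowest for Egr2 and Ier3. The 9 genes therefore did not move as 1 block among libraries of the same genotype.

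**Figure D3:**
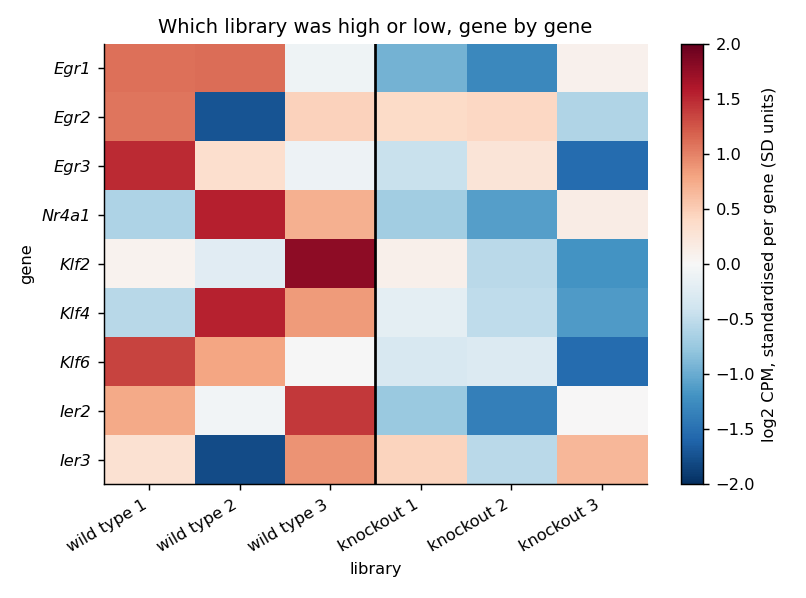
Log2 CPM standardised per gene (colour, SD units) for the 9 tested early genes (rows) in the 6 libraries (columns, wild type left of the line). The highest library differs by gene, 3 genes each for wild-type libraries 1, 2 and 3, and knockout library 3 is low for the 3 Klf genes and Egr3 but not for Egr1, Nr4a1, Ier2 or Ier3.

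With each library left out in turn, the estimates of Klf2, Klf4, Nr4a1 and Egr3 each came closest to 0 without their own highest library, as given above. Those of Egr1 ranged from -1.40 (without knockout library 3) to -0.84 (without knockout library 2), those of Klf6 from -1.32 to -0.80 and those of Ier2 from -0.72 to -0.41. With both Xist-abundant libraries left out, 5 of 9 genes (Egr1, Egr3, Nr4a1, Klf6 and Ier2) had knockout values below all wild-type values. In that comparison of 2 against 2 libraries 18.6% of all tested genes did.

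**Figure D4:**
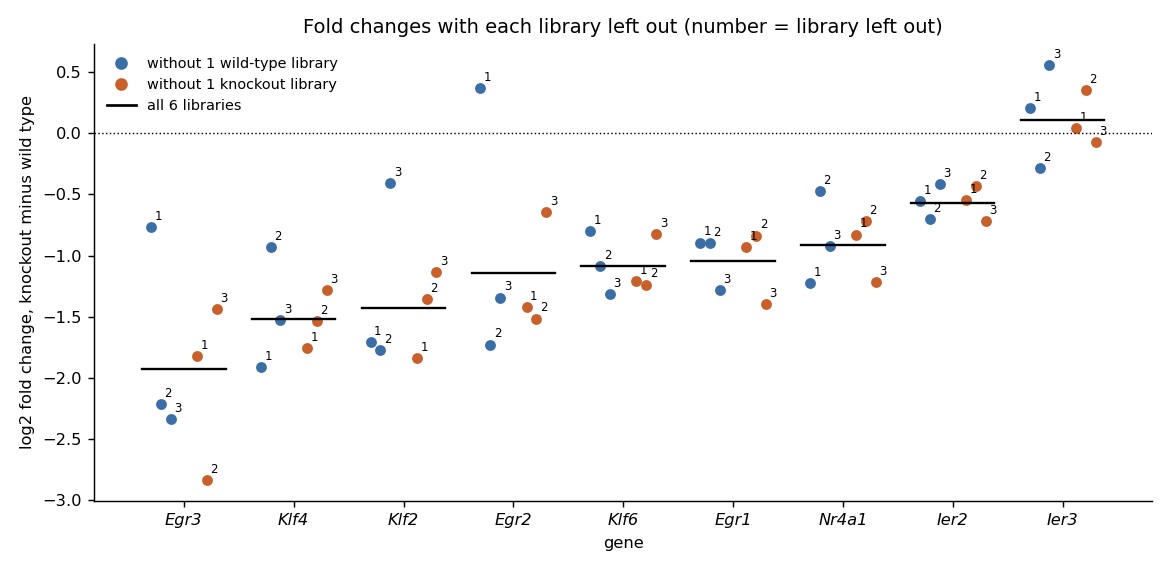
Log2 fold change of knockout against wild type (y axis) for each tested early gene (x axis) with all libraries (bar) and with each library left out (points, numbered by the library left out, coloured by its genotype). Egr2 crosses 0 without wild-type library 1 and Ier3 without wild-type library 2 or knockout library 3, while the other 7 genes stay below 0.

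Per kilobase of transcript, on which genes can be compared, Egr1 led in wild type at 887 ± 276 CPM per kb (SD, n = 3), and its lowest library lay above the highest of any other early gene. Klf6 (119 ± 41.2) and Ier2 (116 ± 23.4) followed and could not be ordered. The lowest wild-type library of Klf6 (77.6) lay below the highest of Nr4a1 (88.5), while the lowest of Ier2 (92.3) lay above it. Nr4a1 (58.2 ± 29.9) and Ier3 (48.1 ± 28.7) overlapped, as did Klf2 (23.3 ± 20.4) and Klf4 (22.6 ± 14.9). Egr2 (5.78 ± 6.79) and Egr3 (2.91 ± 2.79) were the lowest, also overlapping, and from Nr4a1 down to Egr3 the ranges of all neighbours in this order overlapped. In knockout, Egr1 was again the highest at 430 ± 166 CPM per kb, and Ier2 (78.0 ± 15.02) and Ier3 (51.9 ± 16.1) had means on either side of that of Klf6 (55.8 ± 18.6).

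The other genes of the same families had estimates closer to those of all genes. Of 18 relatives 11 were tested, 0 passed edgeR's adjusted test, and their median log2 fold change was -0.09. Klf12, a repressor of the Klf family, was the 1 relative with an unadjusted p under 0.05. Wild-type counts were 1046, 582 and 407 and knockout counts 264, 88 and 267, so all knockout libraries were lower. It stood at -2.10 on the log2 scale (SE 0.58, edgeR adjusted p = 0.47, DESeq2 adjusted p = 0.0287). Klf13 stood at -0.47 (SE 0.37), Klf16 at 0.80 (SE 0.70, higher in every knockout library, as were 7.52% of all tested genes) and Klf8 at 0.65 (SE 0.70). Egr4, Klf5, Klf14, Klf15, Klf17 and Ier5l, like Nr4a3, had too few counts for a test.

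Genes that carry signals to these promoters were examined as a list. Of 25 kinases, SRF partners and CREB-type factors 21 were tested, 0 passed edgeR's adjusted test, and the median was -0.17. At an unadjusted p under 0.05, 2 had lower values and 0 higher ones, where 4.65% and 2.63% of all tested genes did. Atf1, a relative of CREB, stood at -1.01 (SE 0.42), and Elk3, an SRF partner with 2 listed transcripts, at -1.53 (SE 0.69). Elk1, the best known SRF partner, had wild-type counts of 210, 219 and 209 and knockout counts of 105, 107 and 53, lower in every knockout library, with a log2 fold change of -1.58 (SE 0.74, edgeR unadjusted p = 0.0535).

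Corepressors of Egr proteins and inhibitors of the kinase pathway had a median of -0.06 over 13 tested of 14 genes, and 0 passed edgeR's adjusted test. Dusp1, an early gene whose product dephosphorylates MAP kinases, was the 1 gene with an unadjusted p under 0.05, at -0.73 (SE 0.26, edgeR adjusted p = 0.56). Its means were 606 ± 79.1 CPM in wild-type libraries and 365 ± 121 CPM in knockout libraries (SD, n = 3 each), with all knockout libraries lower. Dusp4, which acts likewise, stood at -1.70 (SE 0.88), and averaged 18.5 ± 8.76 CPM in wild-type libraries and 5.69 ± 2.02 CPM in knockout libraries (SD, n = 3 each). The Ras pathway inhibitors Spry2 and Spred1 stood at -0.87 (SE 0.47) and 0.50 (SE 0.33).

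Other early response genes had a median of -0.61 over 30 tested of 37, with 27 negative and 3 positive estimates. Over all tested genes 52.8% were negative. Of the 30 genes, 0 passed edgeR's adjusted test. At an unadjusted p under 0.05, 6 had lower values and 0 higher ones, where 4.65% and 2.63% of all tested genes did. Of the 30, 6 were lower in every knockout library, as were 6.85% of all tested genes. DESeq2 called 4 lower and 0 higher, where it called 0.96% and 0.216% of all tested genes. The 4 of smallest p were the mRNA-decay factor gene Zfp36, the AP-1 genes Fos and Fosb, and Trib1, a pseudokinase gene of myeloid cells. The wild-type and knockout means were 1441 ± 381 CPM and 659 ± 119 CPM for Zfp36, and for Fos 1342 ± 515 CPM and 626 ± 128 CPM (SD, n = 3 each). Trib1 had wild-type counts of 664, 183 and 755 and knockout counts of 81, 217 and 97, so wild-type library 2 lay among the knockout libraries, and stood at -2.37 (SE 0.69, edgeR adjusted p = 0.47).

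Among 9 genes linked to these factors, 5 were tested, with a median of -1.15 and 0 passing edgeR's adjusted test. Thbd, which encodes thrombomodulin and is known as a Klf2 target in endothelium, had wild-type counts of 306, 851 and 494 and knockout counts of 269, 390 and 240, lower in CPM in every knockout library, and stood at -1.15 (SE 0.50, edgeR unadjusted p = 0.0398, adjusted p = 0.67). S1pr1, the sphingosine receptor gene that Klf2 controls in T cells, had 69, 69 and 211 counts against 15, 43 and 73 and stood at -1.74 (SE 1.10). Cebpa stood at -2.74 (SE 2.12), with 203 of its counts in wild-type library 3, and the cell cycle inhibitor gene Cdkn1b at 0.69 (SE 0.57). Cdkn1a, the inhibitor gene tied to Egr1 in stem cells, has 2 listed transcripts and had 1 count in all, so that link could not be followed here. Bmi1, the other gene tied to Egr1 in stem cells, was picked after its value was seen and stood at -0.37.

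**Figure D5:**
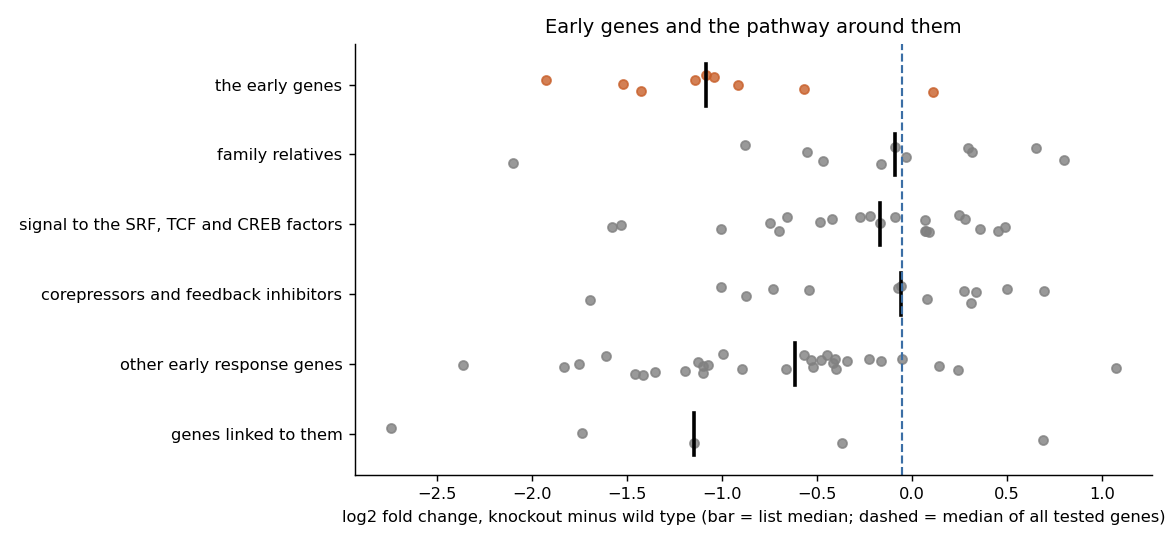
Log2 fold change of knockout against wild type (x axis) of each tested gene (points, spread vertically at random) in the early genes and 5 lists around them (y axis), with the list median (bar) and the median of all tested genes (dashed line). The early genes have a median of -1.09 and the other early response genes one of -0.61, while the relatives, signal genes and inhibitors have medians of -0.09, -0.17 and -0.06.

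The genes whose log2 CPM over the 6 libraries was most like the mean standardised profile of the 9 early genes were Lyst, Ulk1, Jchain, Diaph2 and Zfp521, with Pearson's r of 0.995, 0.984, 0.975, 0.975 and 0.966, as the highest of 6604 candidate genes. Ulk1, the kinase that starts autophagy, stood at 285, 227 and 302 CPM in wild type and 167, 132 and 109 CPM in knockout. Lyst, a gene of lysosome traffic, stood at 174, 154 and 188 CPM against 113, 102 and 98.7 CPM. The profile itself was lower in every knockout library, with wild-type libraries at 0.55, 0.17 and 0.66 SD units and knockout libraries at -0.27, -0.55 and -0.57. All 5 genes shared that pattern, which 6.85% of all tested genes had. They were picked for likeness to the profile, so this is no separate result. With the genotype means removed, the most alike were A430033K04Rik, Cbx7, Abcg4, Azi2 and Zfp445, with r from 0.986 to 0.999. These are descriptions over 6 libraries that share depth, genotype and composition.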

How the data were processed

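RNA was sequenced from 3 wild-type and 3 Hlf knockout libraries of sorted stem cells. The files that the authors deposited hold unnormalised read counts, as whole numbers, for each RefSeq transcript. TopHat and the mouse build mm9 are named in the submitters' processing notes, while the sources used here do not name the counting tool, annotation release, use of strand or treatment of shared reads. The 30858 transcripts were named from a RefSeq table of GRCm38.p6 (30363) or GENCODE M21 (179), 316 kept their accession, and 0 columns were left unmatched. Groups and library numbers came from the sample titles.

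Counts were summed per gene and compared with edgeR 4.0.16 in R 4.3.3 (TMM factors, filterByExpr with a minimum count of 10 and total of 15, robust quasi-likelihood F test, no covariates). P-values were adjusted by Benjamini-Hochberg over 10204 genes. Standard errors came from the F statistic, and 95% intervals from the test's degrees of freedom. CPM used TMM-scaled library sizes, log2 CPM a prior count of 2, and levels per kilobase the GENCODE M21 transcript matched to each RefSeq accession. Alternatives used DESeq2 1.42.0, limma 3.58.1 (voom), other scalings and filters, thinned libraries, and left-out libraries. The fitting script was tested on simulated data for 10204 genes, with 50 changed genes at each size of change. At an adjusted p under 0.05 edgeR called 8% of the 2-fold and 48% of the 4-fold changes.

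The members and gene lists were chosen with earlier results of these data known. The text names all 10 members, the 4 genes of smallest p in each pathway list, and 5 genes of most similar profile (mean log2 CPM 4 or more), by each of 2 measures of likeness, except that some results are not reported here. The lists of stem cell, erythroid, megakaryocyte, stromal and sex genes served as checks of the libraries. Summed over their genes, wild-type and knockout libraries stood at 1959 to 2619 and 765 to 858 CPM for stem cell genes, 1607 to 2012 and 1946 to 2497 CPM for erythroid genes, 311 to 546 and 714 to 918 CPM for megakaryocyte genes, 2.04 to 76.7 and 28.7 to 41.5 CPM for stromal genes and 294 to 1854 and 349 to 1666 CPM for sex genes. Without Hlf, the deleted gene, the stem cell genes stood at 803 to 957 and 727 to 821 CPM, ranges that overlap. Gata2 made up most of that sum, at 473 to 588 CPM in wild type and 517 to 677 CPM in knockout. Procr averaged 75.0 and 23.2 CPM and Mecom 195 and 110 CPM, both lower in every knockout library, as were 6.85% of all tested genes. Of the 6 tested stem cell genes other than Hlf, 4 had negative log2 fold changes.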

Additional observations from a re-analysis of the deposited data

How the results depend on the processing

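For 7 of the 9 tested early genes (Egr1, Egr3, Nr4a1, Klf2, Klf4, Klf6 and Ier2) the direction was the same under all 16 alternatives. Egr2 turned to 1.10 under limma-voom and, with 1 library left out, ranged from -1.73 to 0.37 (turned without wild-type library 1). Ier3 ranged from -0.28 to 0.56 (turned without wild-type library 2 and, at -0.07, without knockout library 3). The cause was not tested. By edgeR and limma-voom no early gene was called under any alternative (0 calls), and DESeq2 called 1, Egr1 (-1.07). Over all genes, DESeq2 called 98 lower and 22 higher, edgeR without a filter on low counts 6 lower and 3 higher, and with the replicate block 2 lower, against 1 and 0 with the settings of the report. With 1 library left out these counts were 1 to 2 lower (2 without wild-type library 1 or 2) and 0 to 1 higher (1 without wild-type library 1). Early genes with lower values at an unadjusted p under 0.05 numbered 5 by DESeq2 (6.82% of all tested genes) and 2 to 5 with 1 library left out (5 without wild-type library 1, 2.87% to 6.05% of all tested genes), against 3 (4.65%). Those lower in every knockout library numbered 5 without the Xist-abundant libraries (18.6% of all tested genes) and 2 to 4 with 1 library left out (9.83% to 13.4%), against 1 (6.85%). The labels do not say that a number marks a shared animal, litter or day, though libraries 3 of both genotypes share abundant Xist. In the check of pairing, deviations of same-numbered libraries from the group means had correlations of -0.01, -0.02 and 0.02, and not every library correlated best with its own number. With libraries thinned to the smallest total of 8346335 counts the log2 fold changes of Egr1 and Klf6 were -1.06 and -1.09, against -1.05 and -1.09. Egr2, Egr3 and Nr4a2 had the fewest counts of the early genes, 669, 383 and 34 in all.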
